A study of Homo sapiens with 12 samples.

Results

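The IL-1 family genes described here were the 10 genes named IL1A, IL1B, IL18, IL1RN, IL33, IL36G, IL1R1, IL1R2, IL1RAP and IL1RL1 among the 58735 genes of the expression table. They were chosen by name, with earlier results of these data known, as were the gene lists used below. Shares of all genes given beside them are therefore descriptions. RNA of NCM460, a human cell line labelled as normal colonic epithelium, was read from 12 libraries, with 3 libraries for each of the 4 groups. The groups were wild-type cells in medium, wild-type cells with TNF-α, wild-type cells with TNF-α and 5-OH-TMT (spelled Bufotenidine in the labels), and cells with the genotype HTRA2 knockdown that also received TNF-α. 5-OH-TMT is the quaternary N-trimethylated form of serotonin, and HTRA2 is a serine protease of the mitochondrial intermembrane space. The study depleted HTRA2 with siRNA, and its text does not say whether the libraries came from 1 siRNA or several. The study describes its knockdown RNA-seq as a comparison with cells given a control siRNA. The labels of the TNF-α libraries name no control siRNA, and no other library carries such a label. Transfection and loss of HTRA2 therefore cannot be told apart in the comparisons made here with the knockdown. The labels give no dose or duration for TNF-α and no dose for 5-OH-TMT, and none says that libraries of a group came from separate cultures, so p-values measure the spread between libraries, which may be technical.

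IL-1α (IL1A) and IL-1β (IL1B) are agonists that bind the signalling receptor IL1R1, which then recruits the shared accessory chain IL1RAP and passes the signal through MYD88 and the IRAK kinases to NF-κB. The family holds its own brakes. IL1RN encodes the receptor antagonist, and IL1R2 encodes a decoy receptor without a signalling domain. IL-1β and IL-18 are made as precursors that caspase-1 cuts, whereas IL-1α and IL-33 are released from damaged barrier cells and act as alarmins. IL-33 binds IL1RL1 (ST2), and IL-36γ (IL36G) acts in squamous and mucosal epithelia through a separate receptor that also uses IL1RAP.

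Reads on genes ranged from 31008429 to 37624399 per library, and mitochondrial transcripts took 3.69% to 4.68% of them in 11 libraries and 2.95% in knockdown library 2. HTRA2 itself lay at 13.96, 14.2 and 15.4 FPKM in the TNF-α libraries and at 7.18, 7.22 and 7.44 FPKM in the knockdown libraries (log2 fold change -0.98, SE 0.09, limma adjusted p = 2.77e-05). The epithelial markers EPCAM, CDH1, KRT8, KRT18 and KRT19 were read in every library. Of 7 colon markers, CDX1, CDX2, VIL1, CDH17, KRT20 and GPA33 had 0 to 2 reads in every library and LGALS4 had 0 to 17, so the defining markers of the labelled cell type were at or near 0 in these RNA data. All 7 squamous and basal epithelial markers (KRT5, KRT14, TP63, KRT6A, KRT16, DSG3 and IVL) were read in every library, and their summed level was 176 to 210 FPKM in medium, 183 to 197 with TNF-α, 204 to 209 with 5-OH-TMT and 224 to 275 in the knockdown. CD3E, DCN, THY1 and KDR, markers of T cells, fibroblasts and endothelium, had 0 reads in every library. Other immune, fibroblast and endothelial markers were read. COL1A1 had 298 to 1137 reads per library, CDH5 57 to 733, CSF1R 26 to 119, PECAM1 19 to 51, CD14 4 to 50 and VWF 6 to 38. ITGAM had 0 to 30 reads, and PTPRC, CD68, LYZ, COL1A2, PDGFRA and LUM had at most 10.

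FPKM, fragment counts scaled for gene length and library depth, allows levels of different genes to be compared per length. In medium, IL18 (16.5 to 17.3 FPKM) and IL1A (14.6 to 16.5 FPKM) overlapped at the top, followed by IL1B at 7.63 to 8.76 FPKM. With TNF-α the order was IL1A (53.5 to 59.7 FPKM), IL1B (26.1 to 29.7 FPKM) and IL18 (19.8 to 24.7 FPKM), with no overlap between neighbours, and the same order held with 5-OH-TMT and in the knockdown. IL1RN and IL1RAP came next in every group and overlapped in medium. IL1R1 stood below IL1RAP, and the ranges of IL1R1 and IL1R2 overlapped with TNF-α and with 5-OH-TMT, while in the knockdown IL1R1 instead overlapped IL1RAP. IL1RL1 had the lowest level of the 8 members with a mean FPKM of at least 0.1, which were the members entered in the fit. Of the summed FPKM of the 10 members, IL1A made up a mean of 34.6% and IL18 36.8% in medium, against 50.2% and 19.5% with TNF-α.

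**Figure D1:**
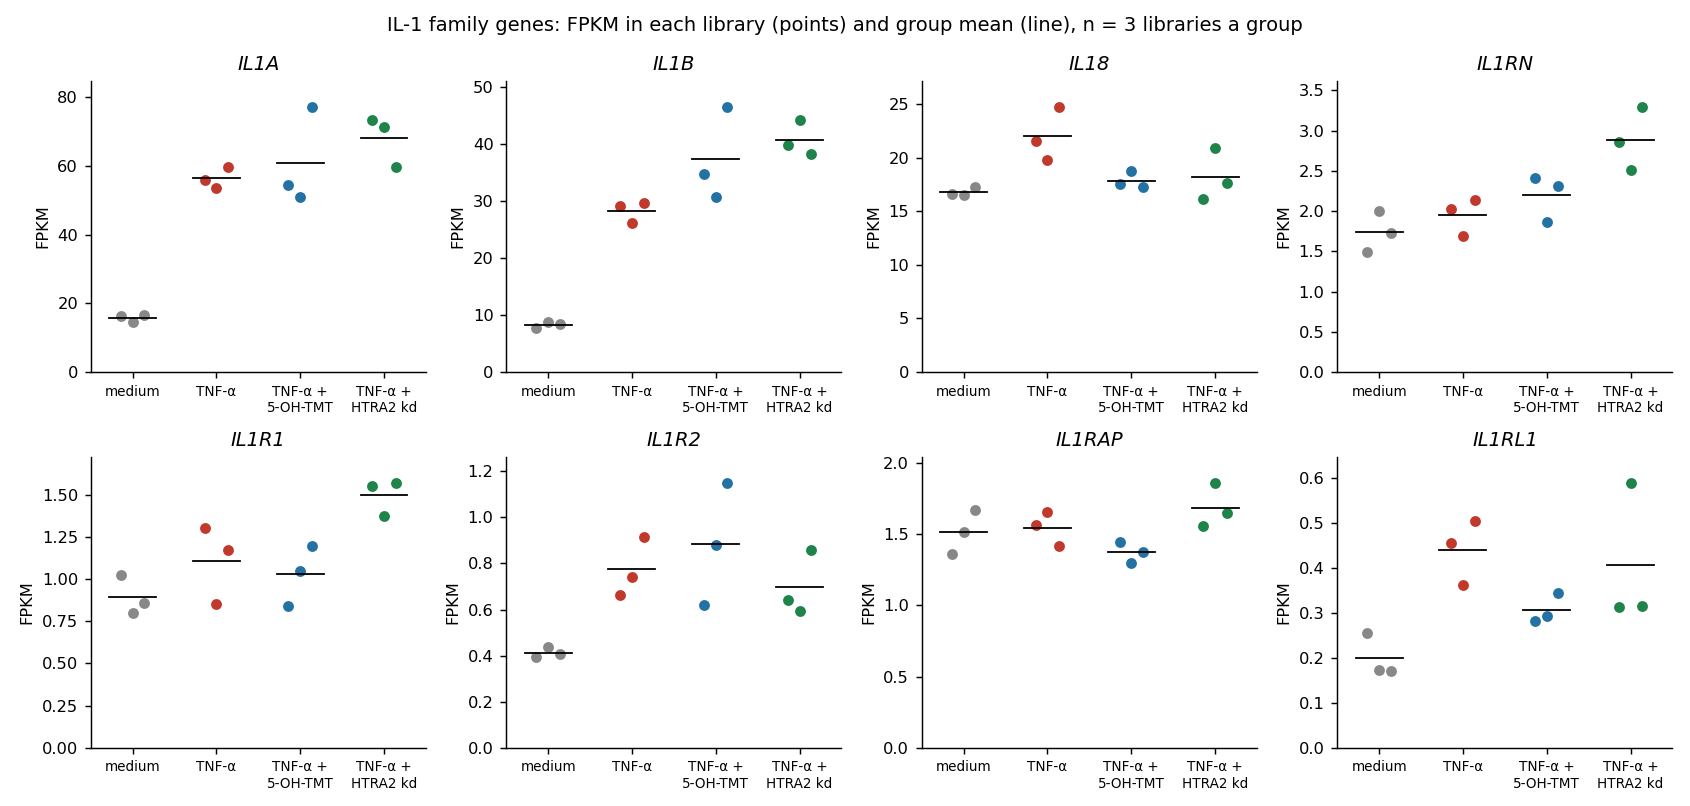
FPKM of 8 IL-1 family genes (y axes, each from 0) in every library of the 4 groups (x axis), with points for libraries and a line for the mean of 3. IL1A and IL1B lie at 14.6 to 16.5 and 7.63 to 8.76 FPKM in medium and above 50 and 26 FPKM in all 9 libraries with TNF-α, while IL1RN lies between 1.49 and 3.29 FPKM.

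The comparison of TNF-α with medium asked how this inflammatory cytokine alters transcription in these cells, and here which IL-1 family RNAs moved with it. IL1A and IL1B rose, and the other 6 members tested did not pass an adjusted p of 0.05. IL1A (ENSG00000115008, chr2:112773915-112784590, minus strand, hg38) was 16.2, 14.6 and 16.5 FPKM in medium and 56.1, 53.5 and 59.7 FPKM with TNF-α. The groups were far apart, and the fold change was 3.56 (95% interval 2.90 to 4.37, limma on log2(FPKM + 0.1), adjusted p = 8.34e-06). IL1B (ENSG00000125538, chr2:112829751-112836903, minus strand), the inflammasome-dependent agonist, was 7.63, 8.76 and 8.41 FPKM in medium and 29.1, 26.1 and 29.7 FPKM with TNF-α. Its fold change was 3.39 (95% interval 2.80 to 4.12, adjusted p = 7.26e-06). These 2 of 8 members, both higher, also passed the fold of 2 with an unadjusted p of 0.05 that the study used for a differentially expressed gene; of all 18079 genes tested, 4.10% had an adjusted p under 0.05, 3.22% were so and higher, and 2.73% passed the study's threshold. The median log2 fold change of the 8 members was 0.57, against -0.0020 over all genes. At an unadjusted p under 0.05, 5 of 8 members passed, against 14.8% of all genes. In bulk RNA, a change in the number of expressing cells and a change in RNA per cell cannot be told apart. The summed level of 4 endothelial markers was also higher with TNF-α (1.42 to 1.57 against 0.491 to 0.597 FPKM). The rise lay in CDH5 (mean 1.32 against 0.335 FPKM), and 1 of the 2 testable markers was called. PECAM1 (mean 0.112 against 0.148 FPKM) and VWF (0.0573 against 0.0778 FPKM) had lower means, and KDR had 0 reads. The summed level of 7 immune markers was 0.332 to 0.470 against 0.606 to 0.863 FPKM. Their part in these results was not tested.

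The starts of IL1A and IL1B, which rose together, and of IL1RN, which did not pass the test, are shown from the RefSeq promoter windows (GRCh38.p14, same coordinates as hg38). Windows of 250 bases before a transcript start were found for 9 of the 10 members, and the stretches printed leave out bases that GENCODE 29 places in an exon. All are 5′ to 3′ on the strand of the gene. The IL1A stretch, chr2:112784591-112784743, runs from -250 to -98 relative to the start at 112784493, the IL1B stretch, chr2:112836904-112837029, from -250 to -125 relative to 112836779, and the IL1RN stretch, chr2:113117721-113117892, from -250 to -79 relative to 113117971. Capitals mark matches to the motifs TGANTCA and GGGNNNNNCC.
IL1A: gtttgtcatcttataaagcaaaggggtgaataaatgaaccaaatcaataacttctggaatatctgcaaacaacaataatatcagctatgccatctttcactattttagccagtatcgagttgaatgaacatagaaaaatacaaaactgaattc
IL1B: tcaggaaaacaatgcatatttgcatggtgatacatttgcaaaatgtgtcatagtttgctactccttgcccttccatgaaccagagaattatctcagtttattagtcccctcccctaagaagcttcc
IL1RN: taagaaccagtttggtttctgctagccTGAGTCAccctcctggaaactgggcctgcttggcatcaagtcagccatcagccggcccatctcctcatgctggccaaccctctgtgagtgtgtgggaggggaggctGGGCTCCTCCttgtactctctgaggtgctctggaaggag

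TGANTCA, a palindrome bound by AP-1 factors, GGGNNNNNCC and the stricter κB consensus, whose matches all also match GGGNNNNNCC, were searched on both strands. Of 35116 windows of 250 bases, 6.57% held TGANTCA, 54.4% GGGNNNNNCC and 9.96% the κB consensus. The window at this IL1A start held TGACTCA at -12 to -6, in bases not printed, and the IL1B window held none of the 3 motifs. The window of another IL1A start, at 112784400, held the same TGACTCA at -105 to -99 and TGAGTCA at -55 to -49. In 1 of the IL1RL1 windows, TGATTCA lay at -191 to -185. The window at this IL1RN start held TGAGTCA at -223 to -217 and GGGCTCCTCC at -117 to -108, and 2 further matches to GGGNNNNNCC in bases not printed. A κB consensus match, GGGGTGCTCC, lay in 1 of the IL1R2 windows, and in no window of IL1A, IL1B or IL1RN. A match describes letters and a missing match concerns only these windows.

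The antagonist did not follow the agonists. IL1RN (ENSG00000136689, chr2:113107214-113134016, plus strand) was 1.49, 2.0 and 1.73 FPKM in medium and 2.03, 1.68 and 2.14 FPKM with TNF-α, and the groups overlapped (fold change 1.12, 95% interval 0.892 to 1.40, limma adjusted p = 0.706). The summed FPKM of IL1A and IL1B was 16.0, 11.7 and 14.4 times that of IL1RN in the medium libraries and 42.0, 47.3 and 41.7 times with TNF-α. On the log2 scale, IL1RN against the agonists differed by -1.65, and the groups did not overlap (two-sided exact permutation p = 0.1, the lowest that 3 libraries against 3 allow).

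**Figure D2:**
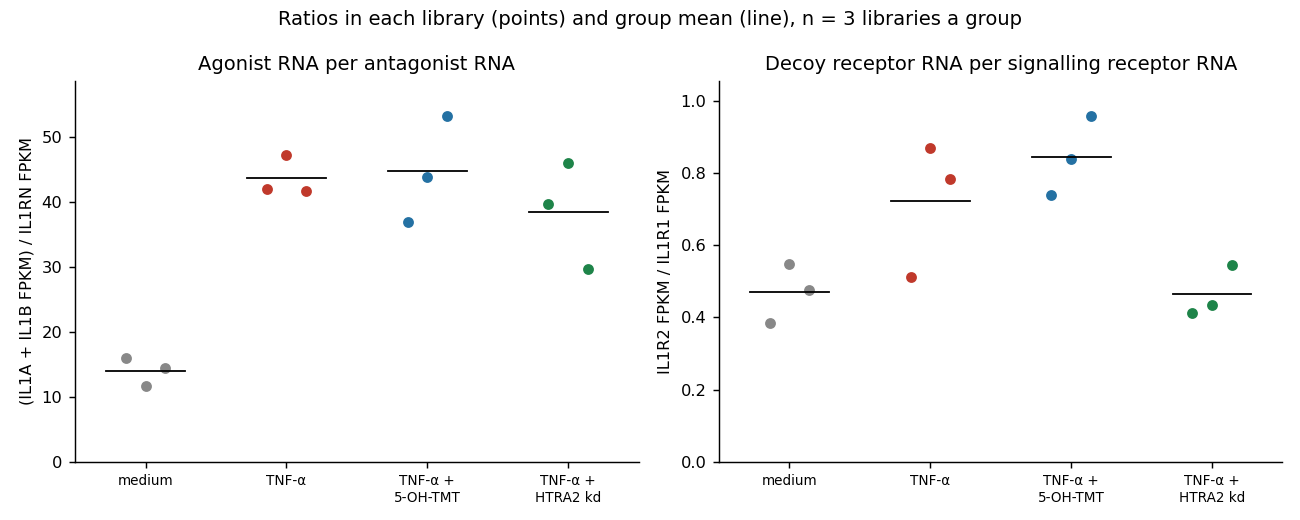
Ratio of IL1A plus IL1B to IL1RN (left, y axis from 0) and of IL1R2 to IL1R1 (right, y axis from 0), computed from FPKM in each library; points are libraries and lines are means of 3. The left ratio is 11.7 to 16.0 in medium and 29.8 to 53.4 in the other 3 groups, and the right ratio is 0.413 to 0.546 in the knockdown and 0.739 to 0.960 with 5-OH-TMT.

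IL18 (ENSG00000150782, chr11:112143251-112164117, minus strand), an inducer of interferon-γ that intestinal epithelium is known to store as a precursor, was 16.6, 16.5 and 17.3 FPKM in medium and 21.6, 19.8 and 24.7 FPKM with TNF-α. All TNF-α libraries were higher, by a fold of 1.31 (95% interval 1.12 to 1.51), but the limma adjusted p was 0.0517. It was 0.0429 when TNF-α library 2 was left out and 0.0938 to 0.189 when any of the other 5 libraries was. Over 13 other settings of the fit it ranged from 0.0289 to 0.111 and passed 0.05 in 2.

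Among the receptors, the decoy IL1R2 (chr2:101991844-102028544) was 0.394, 0.436 and 0.408 FPKM in medium and 0.665, 0.741 and 0.916 FPKM with TNF-α, a fold change of 1.69 (95% interval 1.23 to 2.34, limma adjusted p = 0.0783). It rested on 41 to 43 reads per medium library and 71 to 105 per TNF-α library. The IL-33 receptor IL1RL1 (chr2:102311502-102352037) was 0.256, 0.174 and 0.170 FPKM in medium and 0.455, 0.363 and 0.504 FPKM with TNF-α (fold change 1.81, 95% interval 1.24 to 2.64, limma adjusted p = 0.0924). All TNF-α libraries were higher for both receptors, and neither passed the test. Without the added 0.1, the mean of IL1RL1 with TNF-α was 2.20 times that in medium, past the study's fold of 2. Over 12 other settings of the fit its log2 fold change was 0.26 to 1.13. IL1RL1 shares 40509 bases of its locus with IL18R1 on the same strand, and how reads in shared exons were counted is not given in the sources used here. The signalling chain IL1R1 (chr2:102064544-102179874) was 0.796 to 1.03 FPKM in medium and 0.851 to 1.30 FPKM with TNF-α, and the accessory chain IL1RAP (chr3:190514051-190659750) was 1.36 to 1.67 FPKM and 1.42 to 1.66 FPKM. Both overlapped between groups, with fold changes of 1.21 (95% interval 0.927 to 1.57, adjusted p = 0.540) for IL1R1 and 1.02 (95% interval 0.855 to 1.22, adjusted p = 0.949) for IL1RAP by limma. Counting by overlap alone, 5 of the 8 members had every TNF-α library above every medium library, against 11.1% of all genes.

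IL33 and IL36G fell under the filter on low values. IL33 (chr9:6215786-6257983) had 14 reads in medium library 3 and at most 2 reads in each of the other 11 libraries, so no fold change is given. IL36G (chr2:112973203-112985665) had 0 reads in all medium and 5-OH-TMT libraries, 2 reads in TNF-α library 2 and 0 in the other 2 TNF-α libraries.

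The comparison of TNF-α plus 5-OH-TMT with TNF-α alone asked what the compound changes in stimulated cells. No IL-1 family member passed an adjusted p of 0.05 by limma, nor by voom on recovered reads, against 0.0387% of all genes by limma. At an unadjusted p under 0.05, 2 of 8 members passed, IL1B and IL18, against 20.1% of all genes, and no member passed the study's threshold, against 1.50%. The median log2 fold change of the members was -0.0040, against 0 over all genes. IL1B was 34.8, 30.6 and 46.4 FPKM with the compound and 29.1, 26.1 and 29.7 FPKM without it. Each library with 5-OH-TMT was above each without, by a fold of 1.30 (95% interval 1.07 to 1.58, limma adjusted p = 0.147). The highest value came from library 3, and without that library the log2 fold change of IL1B was 0.21 in place of 0.38 (adjusted p = 0.330). IL1A was 54.4, 50.9 and 77.1 FPKM, again highest in library 3, and overlapped the TNF-α libraries (fold change 1.06, 95% interval 0.863 to 1.30, adjusted p = 0.765). Without library 3 its log2 fold change was -0.10 in place of 0.08.

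IL18 lay at 17.6, 18.8 and 17.3 FPKM with 5-OH-TMT, below all TNF-α libraries beside 16.5 to 17.3 FPKM in medium (fold change against TNF-α 0.815, 95% interval 0.702 to 0.946, limma adjusted p = 0.143). IL1RL1 was also below all TNF-α libraries, at 0.282, 0.294 and 0.343 FPKM (fold change 0.755, 95% interval 0.516 to 1.10, adjusted p = 0.381). Groups that did not overlap, with 5-OH-TMT lower, made up 15.5% of all genes, and 16.3% had 5-OH-TMT higher, against 2 and 1 of these 8 members. IL1RN was 2.41, 1.86 and 2.31 FPKM and overlapped TNF-α (fold change 1.12, 95% interval 0.892 to 1.40, adjusted p = 0.569). The fold change was 0.938 (95% interval 0.721 to 1.22) for IL1R1, 1.10 (95% interval 0.799 to 1.53) for IL1R2 and 0.897 (95% interval 0.751 to 1.07) for IL1RAP. Agonist RNA was 37.0, 43.9 and 53.4 times IL1RN RNA with 5-OH-TMT, a range that enclosed that of TNF-α alone (exact permutation test, two-sided p = 0.9).

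The comparison of the HTRA2 knockdown with TNF-α, in which both groups received TNF-α, asked what depletion of HTRA2, studied as a target of the compound, changes. IL1B and IL1RN rose, an agonist and the antagonist of the same receptor. IL1B was 39.9, 44.1 and 38.2 FPKM in the knockdown against 29.1, 26.1 and 29.7 FPKM with TNF-α (fold change 1.44, 95% interval 1.19 to 1.75, limma adjusted p = 0.0144). IL1RN was 2.85, 2.51 and 3.29 FPKM against 2.03, 1.68 and 2.14 FPKM (fold change 1.45, 95% interval 1.16 to 1.82, adjusted p = 0.0267). Every knockdown library was higher for both. These 2 of 8 members compare with 17.4% of all genes called, 9.35% called and higher, and 4.23% past the study's fold of 2, which no member tested reached. At an unadjusted p under 0.05, 4 of 8 passed, against 31.1% of all genes, and the members' median log2 fold change was 0.19, against -0.0034 over all genes. Without TNF-α library 2 the adjusted p was 0.0637 for IL1B and 0.107 for IL1RN. IL1RN also missed 0.05 without TNF-α library 1 (0.0544) and without knockdown library 1 (0.0744) or 3 (0.0963). Under 13 other settings of the fit, IL1RN missed 0.05 in 2 (adjusted p up to 0.0567), and IL1B kept its call in all 13. The summed squamous and basal marker level was also higher in the knockdown (224 to 275 against 183 to 197 FPKM), with 4 of the 7 markers higher and 1 lower at an adjusted p under 0.05. So were the summed levels of 7 immune markers (0.969 to 1.52 against 0.332 to 0.470 FPKM, with CD3E and LYZ at or near 0) and 6 fibroblast markers (2.62 to 3.22 against 0.974 to 1.31 FPKM, nearly all COL1A1, with DCN and THY1 at 0). The summed level of 4 endothelial markers was higher too (2.21 to 3.62 against 1.42 to 1.57 FPKM), mostly CDH5 (mean 2.79 against 1.32 FPKM), with KDR at 0. Their part in these results was not tested.

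IL36G, an epithelial agonist of a separate receptor, had 9, 9 and 5 reads in the knockdown libraries, or 0.181, 0.181 and 0.0994 FPKM, against 0, 2 and 0 reads with TNF-α. Set against a floor of 3 reads per library, it was at least 2.46-fold higher. In a limma fit without the filter its adjusted p was 0.00352, and 0.0783 when only the 2 groups compared entered the fit. The level in every knockdown library was far below 1 FPKM.

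IL1A was 73.4, 71.4 and 59.6 FPKM in the knockdown, with library 3 inside the TNF-α range (fold change 1.20, 95% interval 0.980 to 1.48, limma adjusted p = 0.206). IL18 was 16.2, 20.9 and 17.6 FPKM in the knockdown, with library 2 inside the TNF-α range (fold change 0.827, 95% interval 0.713 to 0.960, adjusted p = 0.0775), and its adjusted p was 0.0142 without knockdown library 2, the one with the low mitochondrial share, and 0.0564 to 0.262 when any of the other 5 libraries was left out. IL1R1 was 1.55, 1.37 and 1.57 FPKM against 1.30, 0.851 and 1.17 FPKM, higher in every knockdown library (fold change 1.34, 95% interval 1.03 to 1.74, adjusted p = 0.121). IL1B, IL1RN and IL1R1 were the 3 of 8 members whose knockdown libraries all lay above the TNF-α libraries, against 17.5% of all genes. The fold change was 0.910 (95% interval 0.658 to 1.26) for IL1R2, 1.08 (95% interval 0.909 to 1.29) for IL1RAP and 0.913 (95% interval 0.625 to 1.33) for IL1RL1, whose knockdown library 2, at 0.589 FPKM, lay above the other 2 at 0.314 and 0.315 FPKM.

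The agonist-to-antagonist ratio in the knockdown was 39.7, 46.0 and 29.8, overlapping TNF-α (exact permutation test, two-sided p = 0.4). The decoy-to-signalling ratio, IL1R2 to IL1R1, was 0.384, 0.548 and 0.477 in medium, 0.511, 0.870 and 0.783 with TNF-α, 0.739, 0.838 and 0.960 with 5-OH-TMT and 0.413, 0.433 and 0.546 in the knockdown. The exact permutation p was 0.2 for TNF-α against medium, 0.5 for 5-OH-TMT against TNF-α and 0.2 for the knockdown against TNF-α.

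Set directly against the 5-OH-TMT libraries, no member of the 8 passed an adjusted p of 0.05 in the knockdown by limma, whereas voom on recovered reads called 1 and 15.3% of all genes passed by limma. At an unadjusted p under 0.05, 3 members passed (29.7% of all genes): IL1RN (2.51 to 3.29 against 1.86 to 2.41 FPKM, fold change 1.30, adjusted p = 0.109), IL1R1 (1.37 to 1.57 against 0.839 to 1.20 FPKM, fold change 1.43, adjusted p = 0.0681) and IL1RAP (1.56 to 1.86 against 1.30 to 1.45 FPKM, fold change 1.21, adjusted p = 0.140). All were higher in every knockdown library, as were 18.2% of all genes, and none passed the study's threshold, which 3.19% of all genes did. The median log2 fold change of the members was 0.23, against 0.01 over all genes. IL1B and IL1A overlapped between these groups, with fold changes of 1.11 (95% interval 0.913 to 1.34) and 1.14 (95% interval 0.925 to 1.39). Without 5-OH-TMT library 3, IL1A passed (log2 fold change 0.37, limma adjusted p = 0.0399) in place of 0.18. IL36G, at 0 reads in all 5-OH-TMT libraries, had a knockdown mean 2.51 times the floor of 3 reads. The lower end of its 95% interval by limma without the filter was a fold of 1.89 (adjusted p = 0.00239). The adjusted p was 0.0348 when only the 2 groups compared entered the fit. The medium and 5-OH-TMT libraries, all at 0 reads, add no spread to these fits. Both this comparison and that with TNF-α use the knockdown libraries, and the 3 comparisons with TNF-α share its libraries, so their results are not independent.

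**Figure D3:**
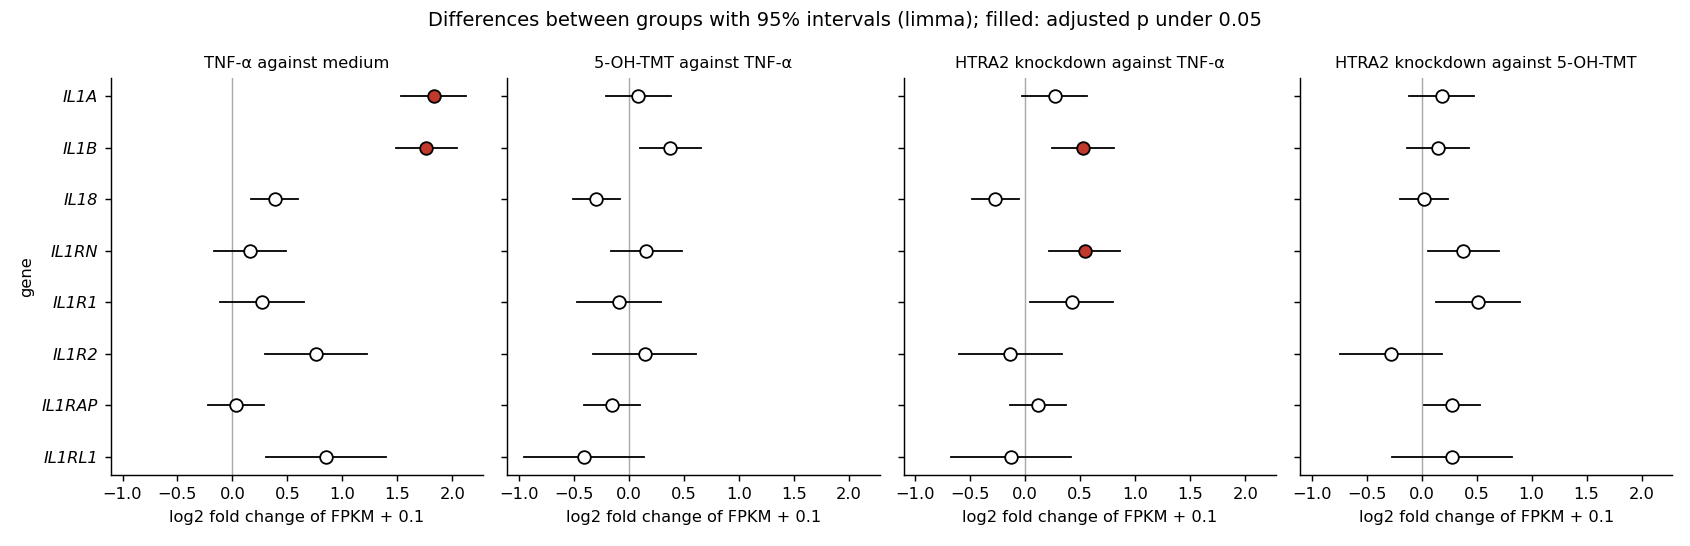
Log2 fold change of FPKM + 0.1 (x axis) for 8 members (y axis) in 4 comparisons, with 95% intervals from limma; filled points have an adjusted p under 0.05. IL1A (1.83) and IL1B (1.76) are filled for TNF-α against medium, IL1B (0.53) and IL1RN (0.54) for the knockdown against TNF-α, and no point is filled in the other 2 panels.

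Of the other IL-1 family ligands, 2 of 5 could be tested and neither was called by limma or voom in the 3 comparisons with TNF-α. At an unadjusted p under 0.05, 0, 0 and 1 passed for TNF-α, 5-OH-TMT and the knockdown, against 14.8%, 20.1% and 31.1% of all genes. IL37, an anti-inflammatory member, was 0.617, 0.497 and 1.85 FPKM with TNF-α, 0.711, 1.11 and 1.46 FPKM with 5-OH-TMT and 0.363, 0.165 and 0.229 FPKM in the knockdown. It was lower in the knockdown than with 5-OH-TMT (log2 fold change -1.75, SE 0.49, limma adjusted p = 0.0338) and missed the threshold against TNF-α (-1.46, adjusted p = 0.0618). Of 7 other receptors and binding proteins, 5 were tested and none was called in the 3 comparisons with TNF-α by limma or voom. At an unadjusted p under 0.05, 1, 0 and 1 passed, beside the same shares of all genes. IL18R1, the IL-18 receptor chain, was higher in the knockdown than with 5-OH-TMT (1.51 to 1.83 against 0.849 to 1.13 FPKM, log2 fold change 0.68, adjusted p = 0.0270). For the knockdown against 5-OH-TMT, 1 of 2 of these ligands and 1 of 5 of these receptors were called, against 15.3% of all genes. When 1 library was left out, the number called in that comparison was 0 for these ligands, and 0 to 1 for these receptors. The inhibitory receptor SIGIRR was at mean levels of 9.20 to 10.9 FPKM and the soluble IL-18 binding protein IL18BP at 0.755 to 0.883 FPKM, with neither called in any comparison.

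The signalling chain downstream of IL1R1 was represented by 16 genes, of which 15 were tested. With TNF-α, 2 rose. IRAK2, a kinase of the receptor complex, went from 2.06, 2.11 and 2.03 to 16.9, 16.8 and 18.1 FPKM (log2 fold change 3.00, SE 0.10, limma adjusted p = 9.18e-09), and the ubiquitin ligase PELI1 rose by 0.72 on the log2 scale (adjusted p = 0.0450), 2 of 15 genes against 4.10% of all genes. The count of 2 fell to 1 with a replicate block and was 1 to 2 with 1 library left out. The adaptor MYD88 was 13.9 to 17.2 FPKM in medium and 12.9 to 17.6 FPKM with TNF-α. With 5-OH-TMT none of the 15 was called by limma or voom and 4 had an unadjusted p under 0.05, against 20.1% of all genes. MYD88, 1 of these 4, was 19.7, 19.7 and 20.3 FPKM, above every TNF-α library (log2 fold change 0.40, limma adjusted p = 0.137). Groups so placed made up 16.3% of all genes. IRAK2 overlapped TNF-α (0.21, adjusted p = 0.283). In the knockdown 6 of 15 were called, against 17.4% of all genes, 4 higher and 2 lower: IRAK2 (0.73), MYD88 (0.41, adjusted p = 0.0460), TAB3 (0.38) and the inhibitor TOLLIP (0.34) rose, while IRAK1 (-0.49) and the ubiquitin-conjugating enzyme UBE2N (-0.44) fell. MYD88, with knockdown library 2 (16.6 FPKM) inside the TNF-α range, had an adjusted p of up to 0.163 with 1 library left out. Between the knockdown and 5-OH-TMT, MYD88 differed by 0.0098 on the log2 scale (limma adjusted p = 0.977). The count of 6 was 3 to 6 under the other settings and 3 to 5 with 1 library left out.

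Of 19 genes for processing and release of IL-1 family cytokines, 16 were tested. TNF-α raised 3, MEFV (log2 fold change 2.54), NLRP3 (1.51) and CASP4 (0.34), against 3.22% of all genes called and higher. 5-OH-TMT raised none by limma or voom, with 5 of 16 at an unadjusted p under 0.05, against 20.1% of all genes. With 1 library left out the TNF-α count was 1 to 2. The knockdown raised 5 of 16, against 9.35% of all genes called and higher, and lowered none. CASP1, which encodes the protease that matures IL-1β and IL-18, was 2.59, 2.47 and 3.19 FPKM with TNF-α and 7.22, 7.36 and 7.60 FPKM in the knockdown (log2 fold change 1.40, SE 0.12, limma adjusted p = 2.38e-05). MEFV (0.79), which encodes the inflammasome sensor pyrin, the inflammasome adaptor PYCARD (0.49) and CASP4 (0.36), an inflammatory caspase, were also among them. CASP1 was 4.21, 3.18 and 3.76 FPKM with 5-OH-TMT, overlapping TNF-α (log2 fold change 0.42, adjusted p = 0.116).

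Genes known to respond to IL-1 receptor signalling in epithelium, most of which also respond directly to TNF-α, made up the list with the most calls. With TNF-α, 13 of the 16 tested rose and none fell, against 3.22% of all genes called and higher. Their median log2 fold change was 2.11, against -0.0020 over all genes. Among them, the ubiquitin editor TNFAIP3 rose by 4.43, the chemokines CCL20, CXCL8 and CXCL1 by 3.67, 3.56 and 3.31, and BIRC3, an inhibitor of apoptosis, by 2.89 on the log2 scale. With 5-OH-TMT none was called by limma or voom, 3 of 16 had an unadjusted p under 0.05, against 20.1% of all genes, and the median was -0.0054. In the knockdown 10 of 16 rose and 1 fell, against 9.35% of all genes called and higher, with a median of 0.90. LCN2, a siderophore-binding antimicrobial protein, was 19.6, 16.3 and 28.97 FPKM with TNF-α and 200, 118 and 202 FPKM in the knockdown (log2 fold change 3.00, SE 0.23, adjusted p = 1.42e-05). CXCL8, ICAM1, CXCL1 and CCL20 rose by 1.96, 1.81, 1.74 and 1.56 on the log2 scale. IL6 was the gene that fell, from 0.711, 1.43 and 1.11 to 0.509, 0.402 and 0.292 FPKM (-1.22, adjusted p = 0.0256). NFKBIZ, which encodes the co-activator IκBζ, was 0.65 higher with TNF-α (adjusted p = 0.0570) and rose by 0.98 in the knockdown (adjusted p = 0.00213). Against 5-OH-TMT, 12 of these 16 genes were called higher in the knockdown and none lower, while 15.3% of all genes were called in either direction. The largest were LCN2 (2.39), CXCL8 (2.10), CXCL1 (1.94), CCL20 (1.53) and ICAM1 (1.31). The summed marker levels given for the knockdown moved with these genes, and their part was not tested.

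**Figure D4:**
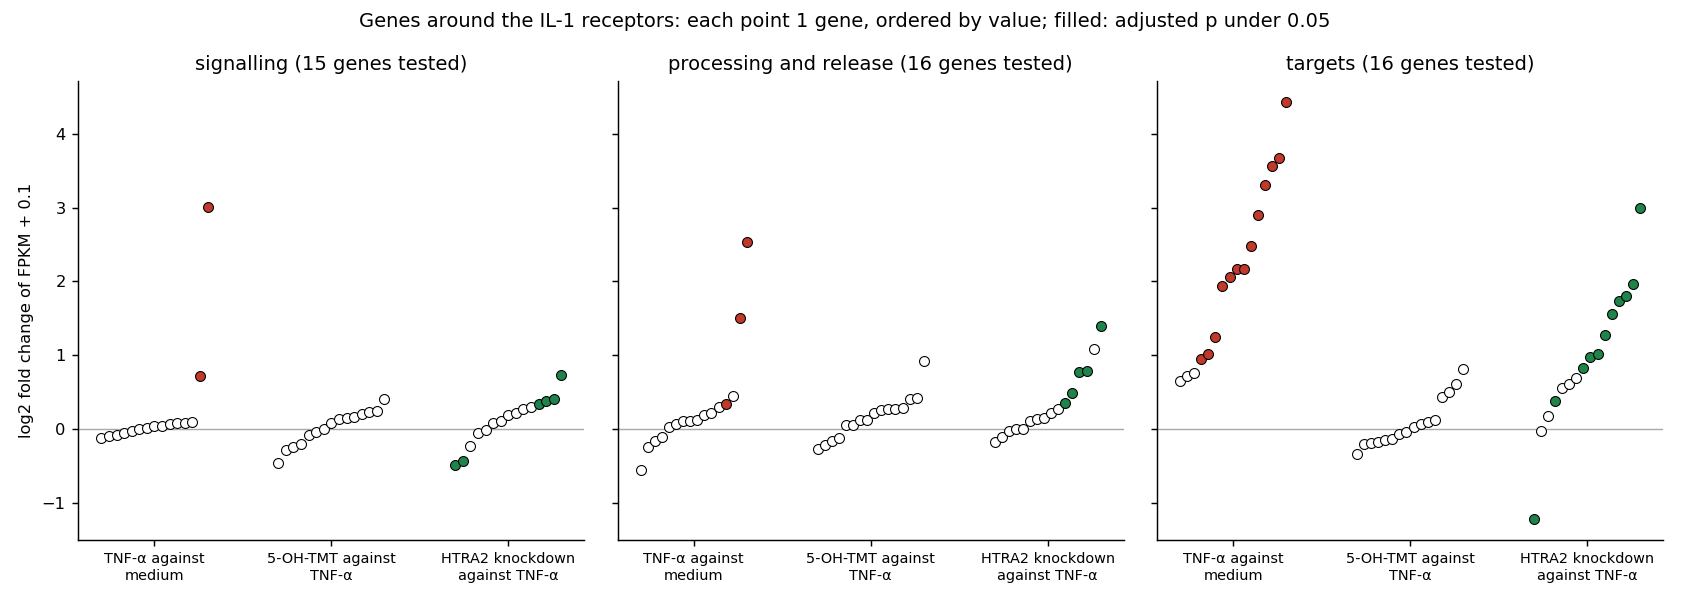
Log2 fold change of FPKM + 0.1 (y axis) of each tested gene of the signalling, processing and target lists in 3 comparisons (x axis), 1 point per gene in order of value; filled points have an adjusted p under 0.05. For TNF-α, 5-OH-TMT and the knockdown, 13, 0 and 11 of the 16 targets are filled, against 2, 0 and 6 of 15 signalling genes and 3, 0 and 5 of 16 processing genes.

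The chromosome 2 members lie in 2 stretches of chromosome 2, each spanning about 360 kb: IL1R2, IL1R1 and IL1RL1 in the receptor cluster, and IL1A, IL1B, IL36G and IL1RN in the ligand cluster. With 100 kb added on either side, the receptor cluster held 11 other genes, of which 4 were tested, and the ligand cluster 17, of which 7 were tested. With TNF-α, the kinase gene MAP4K4 (0.50, limma adjusted p = 0.00125) and the noncoding LINC01127 (1.32, adjusted p = 0.0457, at most 38 reads) rose beside IL1R2, and PAX8 (1.07, adjusted p = 0.0123) rose beyond IL1RN. CKAP2L, next to IL1A, differed by 0.01 on the log2 scale, PSD4, next to IL1RN, by 0.25, and IL36RN, between IL1B and IL1RN, by -0.18. IL37, also between IL1B and IL1RN, differed by 0.98, PAX8-AS1 by 0.59 and NT5DC4 by -0.25. In the receptor cluster, IL18R1 differed by 0.56 and IL1RL2 by -0.43. None of these was called, and 3.22% of all genes were called and higher. IL36A and IL36B, in the same stretch, had 0 reads in all 12 libraries. IL1A and IL1B were, with PAX8, the genes tested in the ligand cluster that were called higher with TNF-α.

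**Figure D5:**
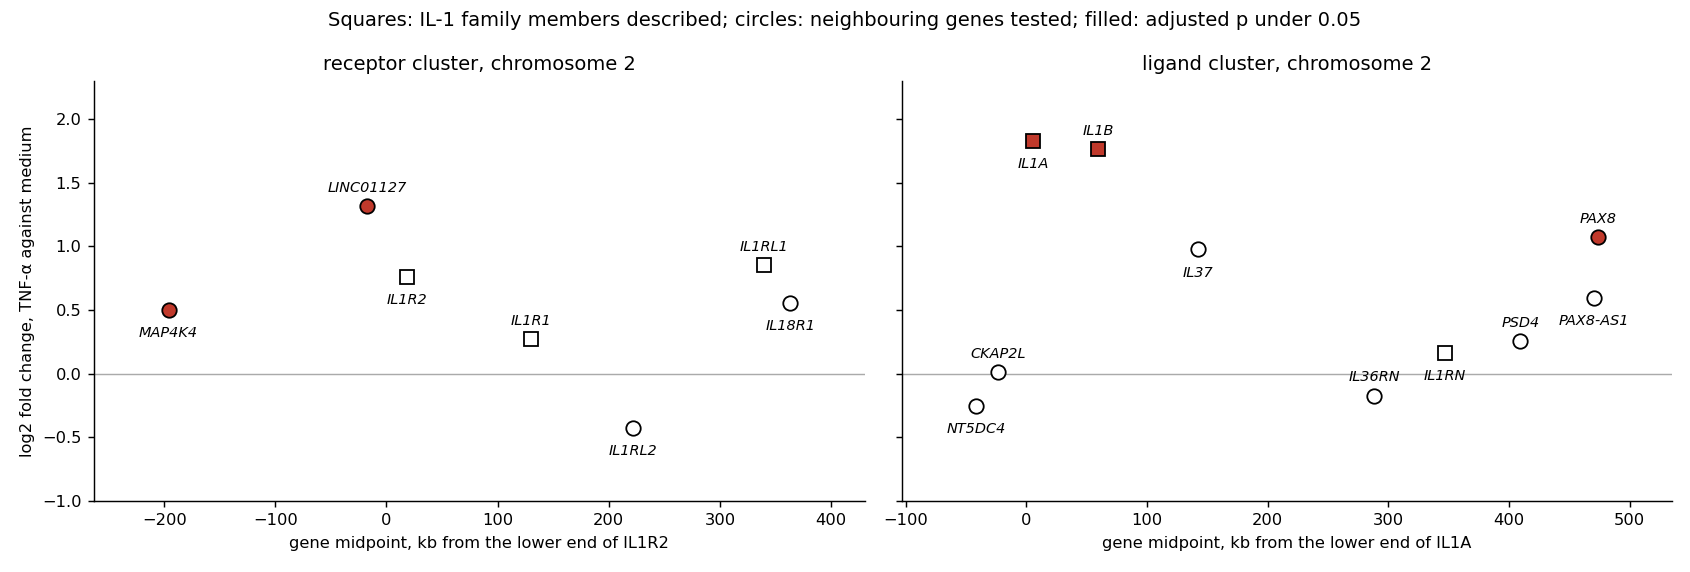
Log2 fold change for TNF-α against medium (y axis) by position of the gene midpoint in kb from the lower end of IL1R2 (left) or IL1A (right, x axes), for genes tested; squares are the members described, circles their neighbours, and filled symbols have an adjusted p under 0.05. In the ligand cluster IL1A (1.83), IL1B (1.76) and PAX8 (1.07) are filled, and in the receptor cluster LINC01127 (1.32) and MAP4K4 (0.50).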

How the data were processed

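NCM460 RNA was sequenced from poly(A)-selected NEBNext Ultra libraries. The submitters' processing notes name CASAVA 1.8, HISAT2 2.0.4, HTSeq 0.9.1 and the build hg38. The authors deposited FPKM values of all genes for the 12 libraries, with gene lengths. Strandedness of counting and the FPKM divisor are not given in the sources used here. Gene positions matched GENCODE 29 for all 58735 genes.

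Groups followed the labels. Whole reads were recovered from FPKM and gene length (100% of values whole within 0.01). With limma 3.58.1 in R 4.3.3, the 18079 genes averaging at least 0.1 FPKM were fitted as log2(FPKM + 0.1) with 1 mean per group (eBayes with trend, 8 residual degrees of freedom), and p-values were adjusted over all genes tested by the Benjamini-Hochberg method. Members under the filter were taken from a fit without it. A gene was called at an adjusted p under 0.05. Single ratios were compared by exact two-sided permutation tests of 3 against 3 libraries. FPKM rather than counts being deposited, voom on recovered reads served as an alternative. Fold changes are on the log2(FPKM + 0.1) scale, which understates changes of low genes. The floor of 3 reads stands in for the lower group only and leaves out the spread of the higher group. The fit was also run on simulated counts for TNF-α against medium, with changes given only to genes with many reads. That run does not show how the fit behaves for members with few reads.

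The members and gene lists were chosen with earlier results of these data known. Named are all members, HTRA2, 6 pathway genes whatever their values, up to 5 genes per list and comparison with an adjusted p under 0.05, an absolute log2 fold change of at least 1 and a mean of at least 1 FPKM, genes near the members on chromosome 2, and the 3 genes most like each of the 6 members with a mean of at least 1 FPKM. Genes outside this rule (IL37, IL18R1, PELI1, TAB3, TOLLIP, IRAK1, UBE2N, MEFV, NLRP3, CASP4, PYCARD and IL6) were named after their values were seen. 1 gene of the lists is not reported by name here. Alternatives were other pseudocounts, filters, scalings, a fit of 2 groups, no trend, a replicate block, voom and each library left out. Scaling without mitochondrial genes and leaving out 5-OH-TMT library 3 with knockdown library 2 were added after seeing the data.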

Additional observations from a re-analysis of the deposited data

How the results depend on the processing

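Of 430 values of members under other settings, 417 kept direction and call, and of 204 with 1 library left out, 188 did. For the knockdown against TNF-α, the members called numbered 1 in place of 2 with only the 2 groups fitted. None was called without TNF-α library 2. Without knockdown library 2, IL18, lower in the knockdown, was called beside IL1B and IL1RN (limma adjusted p = 0.0142 for IL18). Members past the study's threshold numbered 1 in place of 0 without the filter, IL36G being tested there. For the knockdown against 5-OH-TMT, 1 member in place of 0 was called without the filter, with a fixed sum and by voom, and 0 to 1 with 1 library left out, and 1 passed the study's threshold without the filter. These log2 differences, none of them called, changed sign without 5-OH-TMT library 3 and knockdown library 2: IL1A (-0.10) and IL1R2 (-0.0483) for 5-OH-TMT against TNF-α, IL18 (-0.10) and IL1R2 (0.0039) for the knockdown against 5-OH-TMT, and SIGIRR (0.0212) for the knockdown against TNF-α. SIGIRR also did for TNF-α against medium with quantile normalization (-0.0063). With 1 library left out, the range crossed 0 for 5-OH-TMT against TNF-α in IL1A (-0.10 to 0.20), IL1R1 (-0.25 to 0.0347), IL1R2 (-0.0483 to 0.35) and IL18BP (-0.0069 to 0.27), for TNF-α against medium in IL1RAP (-0.0421 to 0.10), IL18BP (-0.0744 to 0.21), MYD88 (-0.17 to 0.0532) and SIGIRR (-0.0563 to 0.12), for the knockdown against TNF-α in IL18BP (-0.10 to 0.18) and SIGIRR (-0.17 to 0.0212), and for the knockdown against 5-OH-TMT in IL18 (-0.0797 to 0.10). The cause was not tested. MYD88 in the knockdown lost its call in 4 of 13 settings and in 4 of 6 with 1 library left out. IL1RN there lost its call in 2 of 13 settings and in 4 of 6. For TNF-α against medium, IL18 gained a call in 2 of 13 settings and IL1RL1 in 1 of 12. Labels give the groups shared replicate numbers, but same-numbered libraries did not deviate together (correlations of -0.10 to 0.04 over 18 pairs). With a replicate block 2, 0, 2 and 0 members were called for the 4 comparisons, as without it, no call of a member changed, and list counts that moved were signalling (3 in place of 6 in the knockdown, 1 in place of 2 with TNF-α, 2 in place of 3 for the knockdown against 5-OH-TMT), processing (2 in place of 3 with TNF-α, 3 in place of 4 against 5-OH-TMT), targets (10 in place of 12 against 5-OH-TMT) and the other ligands (0 in place of 1 against 5-OH-TMT). List counts that moved by over 1.5 times were those of signalling (1 to 2 with TNF-α, 3 to 6 and 2 to 5 in the 2 knockdown comparisons), processing (1 to 3 with TNF-α, 3 to 5 and 2 to 5) and the other ligands and receptors (0 to 1). Low reads limit IL33, IL36G, IL1RL1 and IL1R2.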

Other observations

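For each member of at least 1 FPKM, the 3 genes outside the family whose log2 levels followed it most closely over the 12 libraries were as follows. They were sought among the 11185 genes with a mean of at least 1 FPKM, a count that includes the members. The Pearson correlation used is a description whose points share the 4 treatment groups. IL1A was closest to INHBA, an activin subunit (r = 0.994), HBEGF, an EGF receptor ligand (r = 0.993), and IRAK2 (r = 0.990). IL1B was closest to HBEGF (r = 0.994), NFKB2 (r = 0.993) and IRAK2 (r = 0.991). IL1RN was closest to ARSA (r = 0.952), WIPI1 (r = 0.947) and FUCA1 (r = 0.946), of which ARSA and FUCA1 encode lysosomal hydrolases. IL1R1 was closest to UBTD2 (r = 0.931), PJA1 (r = 0.913) and LCP1 (r = 0.905). IL18 was closest to EIF4B (r = 0.885), TMEM243 (r = 0.874) and TERF2IP (r = 0.874). IL1RAP was closest to POU2F1 (r = 0.868), TMEM106B (r = 0.840) and DSG2 (r = 0.827). By Spearman correlation the closest genes of IL1A and IL1B were others, PDE4DIP and ADM.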
